A study of Mus musculus with 12 samples.

Results

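The Sprouty, Spred and ERK feedback genes are 10 genes that were taken by symbol from a count table of 54134 genes: Spry1, Spry2, Spry4, Spred1, Spred2, Dusp4, Dusp5, Dusp6, Etv4 and Etv5. They were selected on the measured difference between the groups of this study, which was already known, so the AAV-Notum against AAV-GFP values below describe these mice and support nothing further. RNA was sequenced from inguinal white adipose tissue (iWAT), the subcutaneous fat pad of the groin, of 12 male C57BL/6J mice. All of them were injected with an adeno-associated virus of serotype 8 (AAV) at 8 weeks of age, kept on a chow diet for 4 weeks, and fasted for 4 h before the tissue was collected at 12 weeks of age. In 6 mice the virus carried GFP and in the other 6 it carried Notum, in both cases behind the thyroxine binding globulin promoter, which is active in the liver. NOTUM is a secreted enzyme that removes the lipid from Wnt proteins and so silences them.

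When a growth factor binds its receptor tyrosine kinase, Ras is switched on and a chain of kinases ends in ERK, which enters the nucleus and turns on genes. Among the genes that it turns on are its own inhibitors: Sproutys and Spreds act at the membrane, where they restrain Ras and Raf, and dual specificity phosphatases (Dusp) remove the activating phosphates from ERK. Because their RNA follows the activity of the pathway within hours, these inhibitors, together with the ETS factors Etv4 and Etv5, are widely used as a readout of ERK signaling, and in fat the pathway bears on precursor growth and on the response of the adipocyte to growth factors.

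The promoters of the members are shown because most of these genes are known as transcriptional targets of the pathway. RefSeq windows of GRCm38.p6, from 250 bases before to 50 after a transcription start, were found for 7 of the 10 members, in 8 windows, and Spry4, Dusp4 and Etv4 were not matched. Both strands were searched for the ETS site CCGGAAGT, the cyclic AMP response element TGACGTCA, the AP-1 sites TGAGTCA and TGACTCA, and the TCF/LEF sites CTTTGATC and CTTTGAAC, and 0 of the 8 windows held any of them. Of all 32851 windows, 3.89% held the ETS site, 1.79% the cyclic AMP response element, 5.2% an AP-1 site and 1.91% a TCF/LEF site. After the sequences had been seen, 2 looser motifs were added. The core GGAAGT of the ETS site was found in windows of Spred2, Etv5 and Dusp5 and in 23.8% of all windows. The CArG box, the site of serum response factor, was found in Dusp5 alone of the members and in 1.63% of all windows, at positions -82 and -72 from the RefSeq start. The sequences before the annotated gene are printed for Spry2 and Dusp5, the pair of members with the most negative correlation with each other from mouse to mouse, and for Spry1, with capitals for the GGAAGT core (on either strand) and for both CArG boxes, which adjoin each other.
Spry1 (chr3:37639697-37639946, plus strand): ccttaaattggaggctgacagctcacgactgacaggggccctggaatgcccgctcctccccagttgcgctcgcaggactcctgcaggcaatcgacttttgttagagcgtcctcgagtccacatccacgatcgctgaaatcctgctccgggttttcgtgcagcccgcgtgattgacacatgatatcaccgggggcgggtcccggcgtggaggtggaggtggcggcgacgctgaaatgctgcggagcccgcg
Spry2 (chr14:105896820-105897069, minus strand): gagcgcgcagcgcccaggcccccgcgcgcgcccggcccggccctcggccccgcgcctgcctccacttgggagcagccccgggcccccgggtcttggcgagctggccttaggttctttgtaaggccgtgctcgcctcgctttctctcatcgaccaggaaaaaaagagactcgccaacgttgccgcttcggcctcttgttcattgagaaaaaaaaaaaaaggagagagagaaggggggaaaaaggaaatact
Dusp5 (chr19:53528895-53529108, plus strand): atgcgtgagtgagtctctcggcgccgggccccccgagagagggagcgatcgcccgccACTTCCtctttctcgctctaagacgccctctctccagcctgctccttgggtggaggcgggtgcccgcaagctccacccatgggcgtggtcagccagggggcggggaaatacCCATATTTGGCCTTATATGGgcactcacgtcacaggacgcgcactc
The Spry1 and Spry2 windows hold none of the motifs searched. A match of letters is a description of these windows, and neither a match nor its absence says whether a factor binds there.

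The libraries held between 14711113 and 21618860 counted reads. The RNA integrity number (RIN, a score of RNA intactness) ran from 5.7 to 7.6 in AAV-GFP and from 6.9 to 7.4 in AAV-Notum, and the RNA of 1 mouse (AAV-GFP-2012) was isolated on another day. That the tissue was fat was borne out by its markers, since 10 adipocyte genes summed to between 23860 and 50631 CPM in every mouse (reads of a gene scaled to a common library size, with TMM factors). No other fat pad was measured beside it, so which pad it was rests on the label. AAV-GFP-2014 and AAV-GFP-2011 stood apart: 15 lymphocyte genes summed to 10.1 and 17.6 CPM there, and to between 380 and 2718 CPM in the other 10 mice. Lymph nodes lie within this fat pad, and whether nodes were part of the tissue taken was not tested; results that rest on these mice are given with and without them. Notum itself, whose transgene is driven in the liver, had 1 to 17 reads in the fat of the AAV-GFP mice, and 8 to 16 in 4 AAV-Notum mice, but 560 and 433 in AAV-Notum-2032 and AAV-Notum-2041. Hepatocyte marker genes summed to 128 and 705 CPM in AAV-Notum-2032 and AAV-Notum-2041, and to 19.6 to 48.1 CPM in the other 4 AAV-Notum mice. Whether these Notum reads came from liver RNA in the samples was not tested. Over the whole table, edgeR's quasi-likelihood test called 8 of 15585 tested genes lower in AAV-Notum and 0 higher at an adjusted p under 0.05. Without adjustment, 723 were higher at a p under 0.05, and DESeq2 called 79 higher and 357 lower.

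Spry4, Spry1 and Spred2 had lower levels in the fat of each AAV-Notum mouse than in that of any AAV-GFP mouse, Spry4 by the most. Spry2, Spred1, the ERK phosphatases and Etv5 overlapped between the groups, and the phosphatases and Etv5 had no common direction. Of the 10 members, 9 had enough reads for the test, 6 of these had a lower and 3 a higher fitted level in AAV-Notum, and the median log2 fold change over the 9 was -0.32, against 0.01 over all genes tested, of which 48.8% had a lower fitted level. By edgeR, 0 of the 9 had an adjusted p under 0.05, where 0.0513% of all genes were called lower, and 4 (Spry4, Spry1, Spred2 and Spred1) were lower at an unadjusted p under 0.05, as were 9.54% of all genes, and 0 were higher, against 4.64% of all genes. DESeq2, the tool that the study itself used, called 3 of the 9 lower, Spry4, Spry1 and Spred2, and 2.26% of all genes. Those 3 were also the members whose groups did not overlap, with AAV-Notum below, which held for 0.693% of all genes, and 0 members had AAV-Notum wholly above, which held for 0.398%. The calls by edgeR depended on mouse AAV-GFP-2022: without it, 3 members were called lower, while the number of genes called lower over the whole table went from 8 to 146. In bulk tissue, fewer cells of a type and less RNA per cell cannot be told apart.

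**Figure D1:**
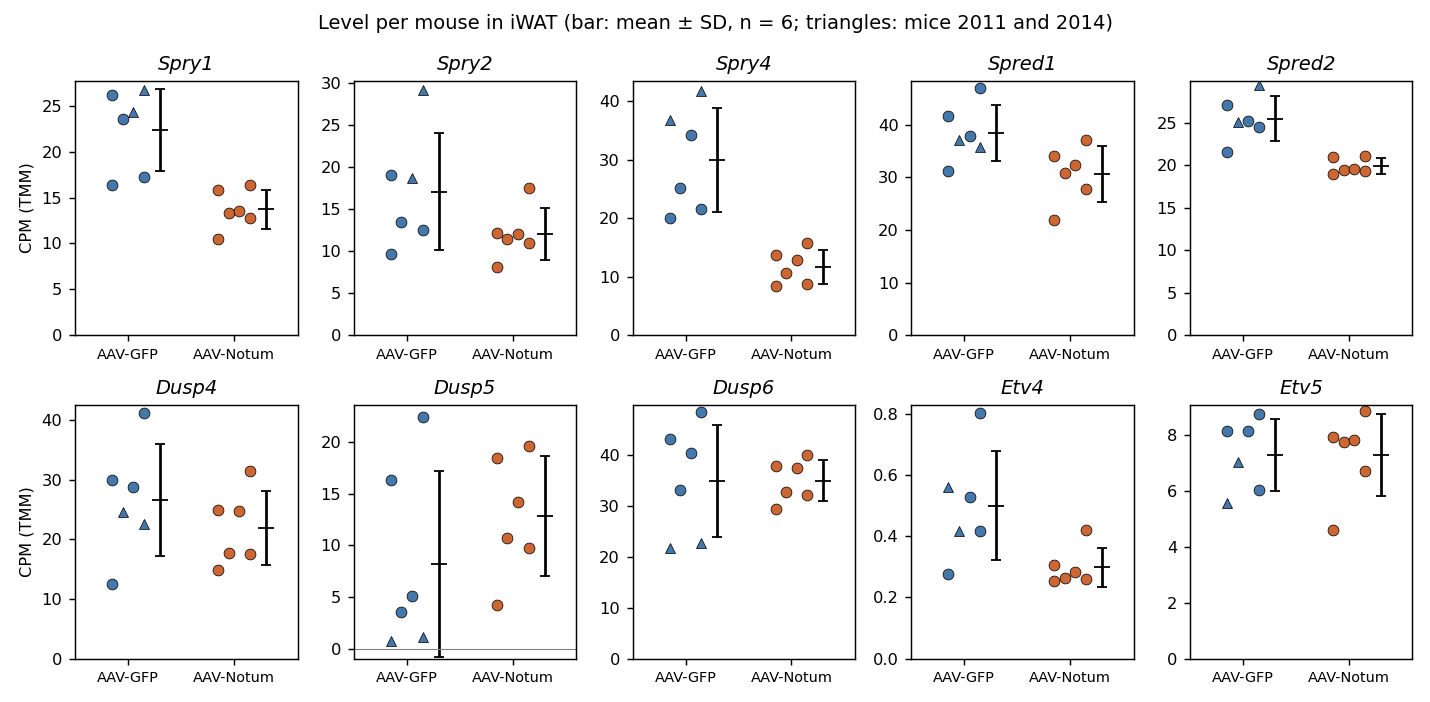
CPM (vertical axis, scaled by TMM) of each member in each mouse of the AAV-GFP and AAV-Notum groups, with the mean and SD of 6 mice beside the points and triangles for AAV-GFP-2014 and AAV-GFP-2011. The groups are well separate for Spry4, narrowly separate for Spred2 (lowest AAV-GFP mouse 21.5 CPM, highest AAV-Notum mouse 21.1 CPM) and just separate for Spry1. The triangles are the lowest AAV-GFP points of Dusp5 and Dusp6.

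Spry4 (ENSMUSG00000024427, GRCm38 chromosome 18, 38586247 to 38601415, minus strand), a Sprouty that blocks Ras activation downstream of growth factor receptors, had the largest difference of the members that were tested. In AAV-GFP it ran from 20.1 to 41.8 CPM with a median of 29.7, and in AAV-Notum from 8.38 to 15.8 CPM with a median of 11.7. The groups did not overlap, and a gap of more than 4 CPM lay between them. Means were 30.0 ± 8.92 and 11.7 ± 2.93 CPM (SD, n = 6 each), which is 61.0% less, and the log2 fold change was -1.36 with a standard error of 0.22. The adjusted p was 0.0518 by edgeR and 3.74e-06 by DESeq2. Counts behind these values ran from 165 to 746 reads a mouse.

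Spry1 (ENSMUSG00000037211, chromosome 3, 37639947 to 37644598, plus strand), the family member best known for restraining growth factor signaling during organ growth, also differed in level. It ran from 16.4 to 26.8 CPM in AAV-GFP, with a median of 23.9, and from 10.5 to 16.4 CPM in AAV-Notum, with a median of 13.4. The groups only just failed to overlap, since the highest AAV-Notum mouse had 16.35 CPM and the lowest AAV-GFP mouse 16.38. AAV-GFP-2013 and AAV-GFP-2022 were the low ones of their group, and the other 4 were at 23.6 CPM or more. The log2 fold change was -0.71 ± 0.15 (SE), with an adjusted p of 0.112 by edgeR and 0.00308 by DESeq2. Exons of Spry1 share 710 bases with Gm42922 on the opposite strand, which had at most 8 reads in a mouse.

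Spry2 (ENSMUSG00000022114, chromosome 14, 105891947 to 105896819, minus strand), which holds back ERK signaling from several receptors while it can prolong that from the EGF receptor, overlapped between the groups. Its level was 9.61 to 29.2 CPM in AAV-GFP, with a median of 16.1, and 8.13 to 17.5 CPM in AAV-Notum, with a median of 11.7. A single mouse, AAV-GFP-2011, was far above the rest, and AAV-GFP-2022 was lower than 5 of the 6 AAV-Notum mice. The log2 fold change was -0.51 ± 0.26 (SE) with an edgeR adjusted p of 0.380, and -0.19 ± 0.22 without the pair of mice low in lymphocyte genes, adjusted p 0.917. Without AAV-GFP-2011 alone, the mouse with the lowest RIN, it was -0.29, and with the RIN as a covariate -0.23.

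Spred2 (ENSMUSG00000045671, chromosome 11, 19924375 to 20024026, plus strand), a relative of the Sproutys that suppresses ERK activation by Ras, had a small and even difference. Levels were 21.5 to 29.4 CPM in AAV-GFP, median 25.1, and 19.0 to 21.1 CPM in AAV-Notum, median 19.5. The groups did not overlap, and the 6 AAV-Notum mice lay within little more than 2 CPM of each other. The standard deviation was 2.64 CPM around a mean of 25.5 in AAV-GFP and 0.912 CPM around 19.9 in AAV-Notum. The log2 fold change was -0.36 ± 0.08 (SE), with an adjusted p of 0.117 by edgeR and 0.00971 by DESeq2.

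Spred1 (ENSMUSG00000027351, chromosome 2, 117121374 to 117182279, plus strand), which brings the Ras inactivator neurofibromin to the membrane, ran from 31.2 to 47.0 CPM in AAV-GFP, with a median of 37.5, and from 21.9 to 37.1 CPM in AAV-Notum, with a median of 31.7. Mouse AAV-Notum-2033 was the lowest of all, and the highest AAV-Notum mouse reached the middle of the AAV-GFP range. Its log2 fold change was -0.32 ± 0.13 (SE) with an edgeR adjusted p of 0.305 and a DESeq2 adjusted p of 0.269.

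The phosphatases gave no common picture. Dusp4 (ENSMUSG00000031530, chromosome 8, 34807297 to 34819894), a nuclear phosphatase that acts on ERK and also on JNK and p38, ran from 12.6 to 41.1 CPM in AAV-GFP and from 14.8 to 31.4 CPM in AAV-Notum, with medians of 26.7 and 21.3. The groups overlapped almost fully, with the lowest and the highest mouse both in AAV-GFP, and the log2 fold change was -0.28 ± 0.26 (SE; edgeR adjusted p 0.557). It was -0.12 without AAV-GFP-2012 and -0.42 without AAV-GFP-2021.

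Dusp6 (ENSMUSG00000019960, chromosome 10, 99263231 to 99267489), a cytoplasmic phosphatase of high specificity for ERK and a common readout of its activity, had the same mean in both groups, 35.0 ± 11.0 CPM in AAV-GFP and 35.0 ± 4.07 CPM in AAV-Notum (SD, n = 6 each). The AAV-GFP mice ran from 21.8 to 48.6 CPM and spanned the AAV-Notum range of 29.5 to 40.0 CPM on both sides. The mice low in lymphocyte genes had 22.8 and 21.8 CPM and the other 4 AAV-GFP mice 33.2 to 48.6, so the equal means rest on those mice. Without them the log2 fold change was -0.24 ± 0.12 (SE; edgeR adjusted p 0.727), and with all mice it was 0.00 ± 0.19 (adjusted p 0.999).

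Dusp5 (ENSMUSG00000034765, chromosome 19, 53529109 to 53542431), a nuclear phosphatase specific to ERK that also binds ERK and holds it in the nucleus, varied more than any other tested member. Among AAV-GFP mice it went from 0.775 to 22.5 CPM, with a median of 4.32, and among AAV-Notum mice from 4.27 to 19.7 CPM, with a median of 12.5. The AAV-GFP mice split into 2 with more than 16 CPM (AAV-GFP-2013 and AAV-GFP-2022) and 4 with 5.08 CPM or less, of which those low in lymphocyte genes had 1.12 and 0.775 CPM. The coefficient of variation was 110% in AAV-GFP and 45.1% in AAV-Notum. Its log2 fold change was 0.64 ± 0.71 (SE; edgeR adjusted p 0.63) with all mice, and 0.12 ± 0.54 without the mice low in lymphocyte genes (adjusted p 0.975). It was 1.26 without AAV-GFP-2022, and 1.47 with limma-voom and 1.41 with limma on the authors' normalized values, and none of these passed (adjusted p 0.262, 0.288 and 0.335). Exons of Dusp5 share 547 bases with AC137853.2 on the opposite strand, which had 0 reads.

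Etv5 (ENSMUSG00000013089, chromosome 16, 22381309 to 22439719) and Etv4 (ENSMUSG00000017724, chromosome 11, 101769742 to 101785371) are ETS transcription factors of the PEA3 group that carry the response to growth factors such as FGF. Etv5 ran from 5.54 to 8.74 CPM in AAV-GFP, median 7.56, and from 4.60 to 8.85 CPM in AAV-Notum, median 7.77. The lowest and the highest mouse were both in AAV-Notum and the groups overlapped throughout, with a log2 fold change of 0.00 ± 0.17 (SE; edgeR adjusted p 0.995). Etv4 had only 4 to 13 reads a mouse and did not pass the filter of the test. Its level was 0.277 to 0.801 CPM in AAV-GFP and 0.254 to 0.419 CPM in AAV-Notum, with overlap. When every gene with at least 1 read was tested, edgeR gave it a log2 fold change of -0.71 ± 0.31 (SE; p 0.0401, adjusted p 0.504), and DESeq2 gave -0.72 ± 0.42 (SE; p 0.0892) with no adjusted p, so Etv4 was not called.

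**Figure D2:**
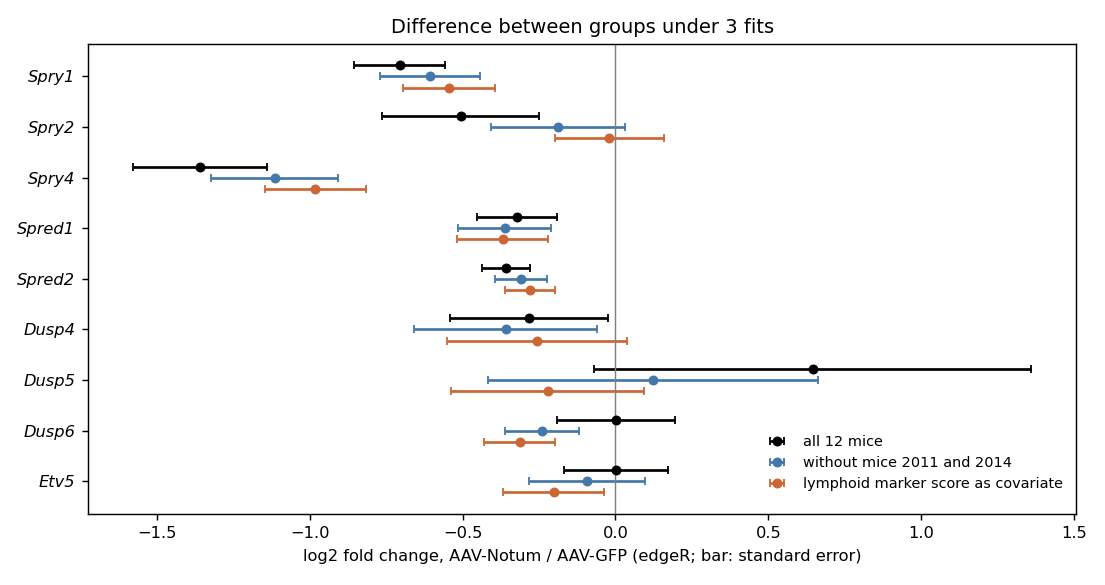
Log2 fold change of AAV-Notum over AAV-GFP (horizontal axis) of the 9 tested members from edgeR, with bars of 1 standard error, for all 12 mice, for the 10 mice other than AAV-GFP-2014 and AAV-GFP-2011, and with the lymphocyte marker score as a covariate. Spry4 stays near or below -1 in the 3 fits (-1.36, -1.11 and -0.98), while Spry2 moves to -0.02 and Dusp5 from 0.64 to -0.22 with the covariate.

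Leaving out the mice low in lymphocyte genes, or holding the lymphocyte score constant, left the sign of Spry1, Spry4 and both Spreds. Spry4 had a log2 fold change of -1.11 without these mice, with an adjusted p of 0.254 by edgeR and 8.2e-04 by DESeq2, and it was then the only member that DESeq2 called. Spry1 had -0.61 and Spred2 -0.31 by DESeq2 without these mice, against -0.70 and -0.35 with all mice, and their adjusted p were 0.105 and 0.121. With the lymphocyte score as a covariate Spry4 was at -0.98 (edgeR adjusted p 0.0796), Spry1 at -0.54, Spred1 at -0.37 and Spred2 at -0.28. Dusp4 was at -0.26, close to its value without the covariate, and the score as a covariate put Dusp6 at -0.31 (adjusted p 0.456), Dusp5 at -0.22 and Etv5 at -0.20, none of which passed.

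Per kilobase of exon (FPKM, computed from the counts and the length of all exons of a gene merged), Dusp6 and Dusp4 led. Dusp6 had a mean of 11.2 FPKM over the 12 mice, Dusp4 8.85, Spry2 6.98, Spry1 6.22, Spred1 5.09, Spred2 4.91, Spry4 4.38, Dusp5 4.26, Etv5 1.77 and Etv4 0.128. Neighbours in this order mostly overlapped from mouse to mouse: each gene was above the next in 5 to 9 of the 12 mice, and Etv5 was above Etv4 in 12 of 12. The place of 3 genes differed between the groups: Spry1 was the fourth in AAV-GFP and the fifth in AAV-Notum, Spry4 was the fifth of the 10 by mean in AAV-GFP, with 6.30 FPKM, and the eighth in AAV-Notum, with 2.46, and Dusp5 was the eighth with 3.33 FPKM in AAV-GFP and the fourth with 5.19 in AAV-Notum.

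How the members vary between mice of the same group was not used to choose them, so it could be tested. The mean of each group was subtracted from the log2 CPM values, and for each of the 36 pairs of the 9 tested members the correlation over 12 mice was set against every reordering of the mice within groups (exact permutation, two-sided, adjusted over the 36 pairs). The members did not move as a single block: 16 of the 36 correlations were positive, and their median was -0.10, against 0.01 over all 121438320 pairs of tested genes. By Pearson's r, 4 pairs had an adjusted p under 0.05, 3 of them positive and 1 negative, and by Spearman's rho 3 pairs did.

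The pair with the smallest p was a negative relation: mice with more Spry2 had less Dusp5. Pearson's r was -0.87 (exact permutation p 9.8e-04, adjusted 0.0353) and Spearman's rho -0.93 (p 1.6e-04, adjusted 0.00569). It held without the mice low in lymphocyte genes, with r at -0.90 (exact permutation, adjusted p 0.00208), was -0.87 among AAV-GFP and -0.93 among AAV-Notum mice, and was -0.79 without the 2 mice farthest from the median of Spry2. This was the only pair to pass over the 10 mice.

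Spry2 and Spry4, both Sproutys, ran together with r at 0.83 (exact permutation p 0.00228, adjusted 0.0410) and rho at 0.89 (p 0.00127, adjusted 0.0228). Over those 10 mice r was 0.73 and its adjusted p 0.217 by the same exact permutation test, and without the 2 mice farthest from the median of Spry2 r was 0.73. Spry4 and Dusp5 had r at -0.75 (exact permutation p 0.0126, adjusted 0.0908) and rho at -0.84 (p 0.00314, adjusted 0.0377), so that this pair passed by rank alone, and over the 10 mice r was -0.58. Mice high in Spry4, such as AAV-GFP-2011, AAV-GFP-2012 and AAV-GFP-2014, were low in Dusp5.

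Dusp5 and Dusp6 ran together, with r at 0.89 (exact permutation p 0.00463, adjusted 0.0417), but rho was 0.69 (p 0.0479, adjusted 0.216) and over the 10 mice r was 0.66 with an adjusted p of 0.455. Dusp5 and Etv5 had r at 0.73 (exact permutation p 0.00440, adjusted 0.0417) and rho at 0.78 (p 0.00682, adjusted 0.0614). Over the 10 mice the latter pair had r at 0.77 (adjusted p 0.122), and without the 2 mice farthest from the median of Dusp5 it had 0.63. Spry1, Spred1, Spred2 and Dusp4 were in none of the pairs that passed by either measure.

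**Figure D3:**
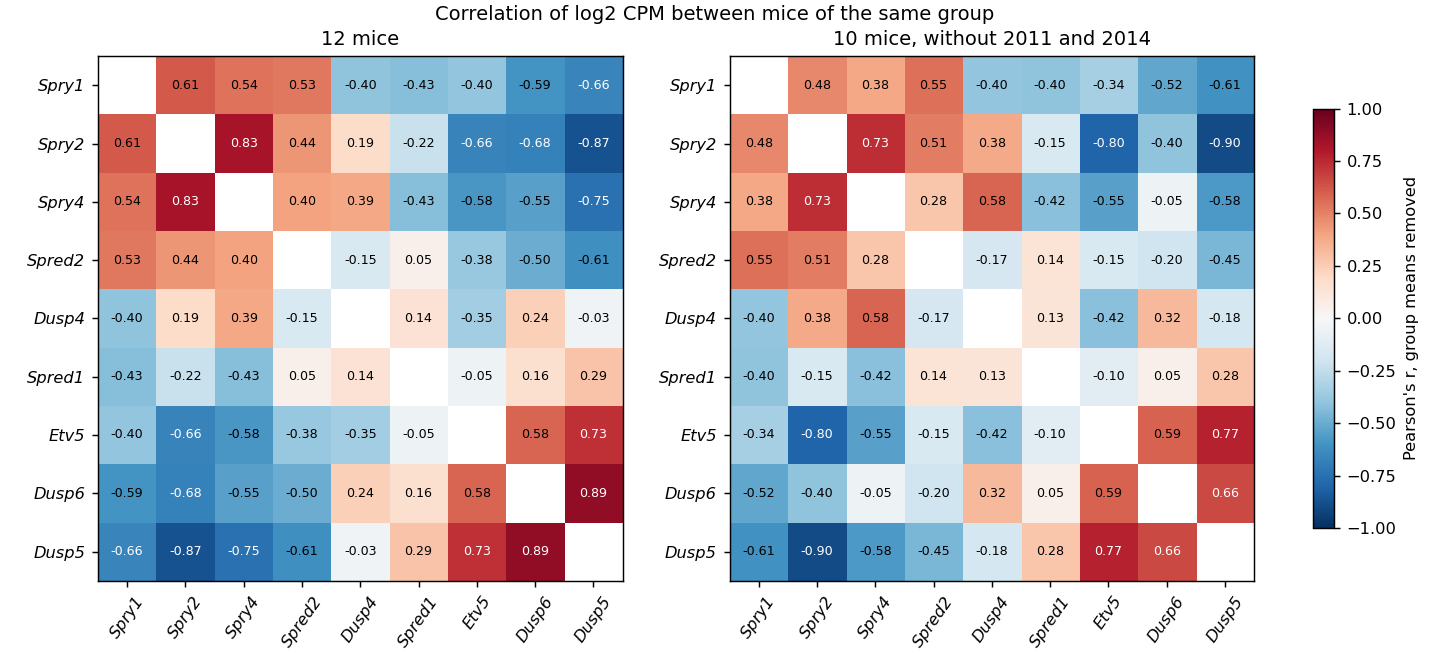
Pearson's r between members over mice, from log2 CPM with group means removed (color scale from -1 to 1), for all 12 mice and for the 10 mice other than AAV-GFP-2014 and AAV-GFP-2011. Spry1, Spry2, Spry4 and Spred2 have r of 0.40 or more with each other over 12 mice, and below 0 with Etv5, Dusp6 and Dusp5, of which Dusp5 has -0.87 with Spry2. Among the pairs of Spry1, Spry2, Spry4 and Spred2, only that of Spry2 and Spry4 passed. Spred2 and Spry4 have r of 0.28 over the 10 mice. In AAV-Notum mice alone (not shown), Spred2 has -0.32 with Spry4, -0.09 with Spry2 and 0.20 with Spry1.

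Several members varied with marker genes of the cell types in the tissue. Mean log2 CPM scores of 10 marker lists and the RIN were correlated with the 9 members in the same way, 99 relations in all, of which 13 had an adjusted p under 0.05 by Pearson's r, 13 by Spearman's rho, and 12 over the 10 mice. All that passed over 12 mice were of Spry2, Spry4, Dusp5 and Etv5, and with the lymphocyte, adipocyte, endothelial or epithelial scores. The epithelial score rests on 3 of its 8 genes, all low (a sum of 3.16 to 11.1 CPM). No relation with the RIN passed. Over the 10 mice the progenitor score passed as well, with r at 0.89 for Spry2 (exact permutation, adjusted p 0.0158; rho 0.89, adjusted p 0.0420) and -0.86 for Dusp5 (adjusted p 0.0446; rho -0.83, adjusted p 0.0420), while over 12 mice these were 0.32 and -0.0048.

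Dusp5 fell along the adipocyte score, with r at -0.91 over 12 mice (exact permutation, adjusted p 0.00172), rho at -0.97 (adjusted p 9.6e-04), -0.94 over the 10 mice (adjusted p 0.0158) and -0.78 without the 2 mice farthest from the median of the score. Along the lymphocyte score it rose, with r at 0.85 over the 10 mice (exact permutation, adjusted p 0.0172; rho 0.85, adjusted p 0.0420), and 0.93 among the AAV-Notum mice alone. AAV-GFP-2014 and AAV-GFP-2011 lie far from the rest on this score, so no value over all 12 mice is given. Etv5 had r at 0.88 with the lymphocyte score over the 10 mice (adjusted p 0.0158), though rho was 0.72 (adjusted p 0.130), and -0.79 with the adipocyte score over 12 mice (exact permutation, adjusted p 0.0349; rho -0.82, adjusted p 0.0376). In mice with more lymphocyte RNA, then, Dusp5 and Etv5 were higher.

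Spry2 ran the other way. Its r with the adipocyte score was 0.86 over 12 mice (exact permutation, adjusted p 0.0101; rho 0.92, adjusted p 0.00974) and 0.88 over the 10 mice (adjusted p 0.0158). With the endothelial score it was 0.87 (exact permutation, adjusted p 0.0307; rho 0.92, adjusted p 0.0156), and with the lymphocyte score -0.87 over the 10 mice (adjusted p 0.0272; rho -0.81, adjusted p 0.0501). Without the 2 mice farthest from the median of the score, its r was 0.74 with the adipocyte and 0.75 with the endothelial score.

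For Spry4 r was 0.82 with the adipocyte score (exact permutation, adjusted p 0.0395; rho 0.85, adjusted p 0.0315) and 0.86 with the endothelial score (adjusted p 0.0349; rho 0.83, adjusted p 0.0376). Over the 10 mice these were 0.75 (adjusted p 0.131) and 0.82 (adjusted p 0.0458), and r with the lymphocyte score was -0.71 (adjusted p 0.138), all by exact permutation. The marker lists also differed in direction between the groups, with 0 genes of any of them called by edgeR. All 15 lymphocyte genes had a higher fitted level in AAV-Notum, while 9 of 10 endothelial, 8 of 10 adipocyte, 8 of 10 progenitor, 7 of 10 macrophage, 4 of 8 mural and 6 of 6 Schwann cell genes had a lower one. The unadjusted edgeR p of the lymphocyte genes ran from 0.222 to 0.463, with all mice in the fit. Their sums were 10.1 and 17.6 CPM in AAV-GFP-2014 and AAV-GFP-2011, 380 to 1921 CPM in the other AAV-GFP mice, and 617 to 2718 CPM in AAV-Notum. Skeletal muscle and hepatocyte genes were high in single mice: the muscle genes summed to 3464 CPM in AAV-Notum-2042 and to 6.68 to 746 CPM in the other 11 mice, and the hepatocyte genes to 4925 and 1286 CPM in AAV-GFP-2013 and AAV-GFP-2014 and to 19.6 to 705 CPM in the other 10. The endothelial genes summed to 652 to 1010 CPM in AAV-GFP and 612 to 791 CPM in AAV-Notum, and DESeq2 called 1 of them, Robo4, lower (adjusted p 0.0275). It also called the macrophage gene Cd163 (2.5e-05) and the mural genes Notch3 (0.0148) and Acta2 (0.0307) lower, and these 4 marker genes are named after their values were seen. The adipocyte sums were 26112 to 48842 and 23860 to 50631 CPM. Beyond the fit with the lymphocyte score, the part of these cell types in the differences of Spry2, Spry4 and Dusp5 between groups was not tested.

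**Figure D4:**
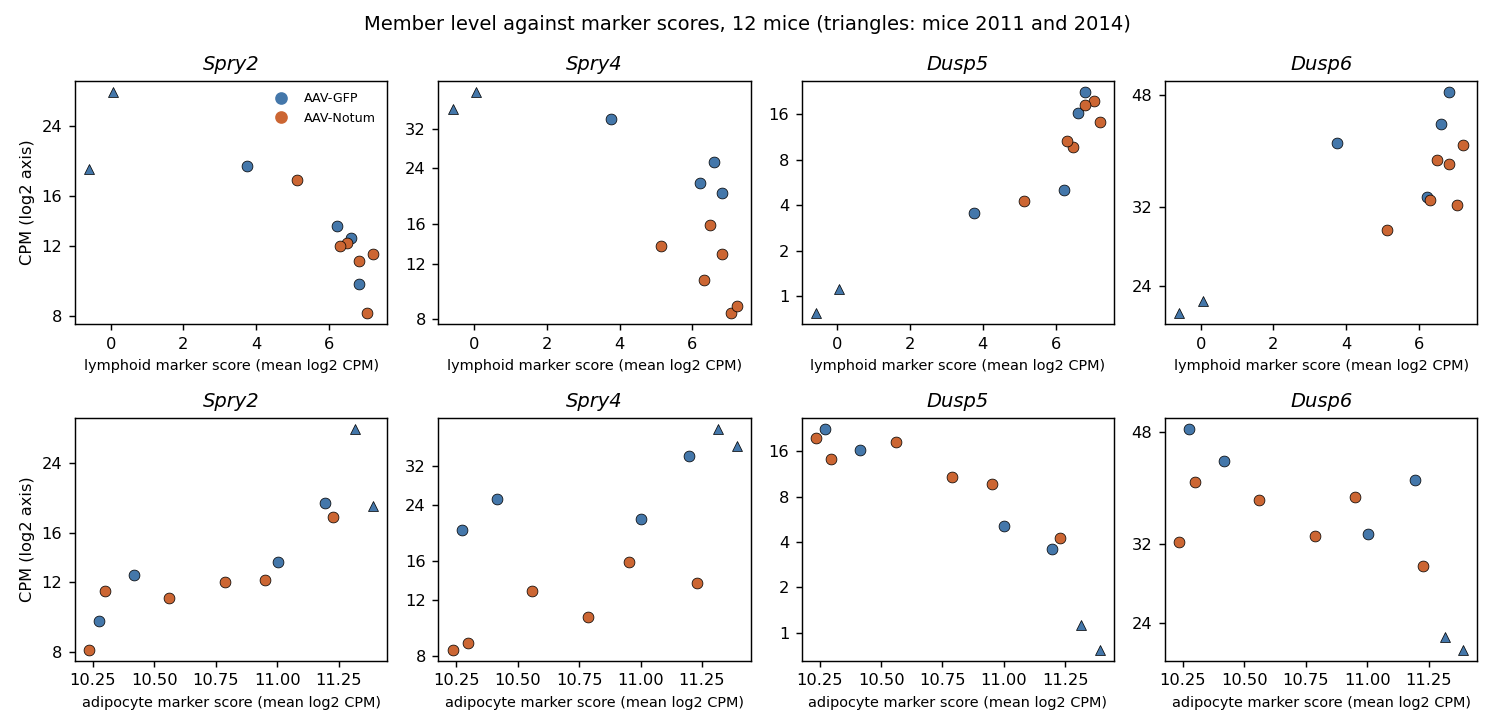
CPM of Spry2, Spry4, Dusp5 and Dusp6 (vertical axes on a log2 scale) in each mouse against the lymphocyte score (upper row) and the adipocyte score (lower row), both a mean of log2 CPM over the marker genes. Dusp5 falls from 22.5 to 0.775 CPM as the adipocyte score rises, while Spry2 and Spry4 climb, with r of 0.86 and 0.82 within groups.

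Genes whose level ran most like the mean of the 9 members over the 12 mice (as z-scores of the group-centred values, among genes with a mean of at least 10 reads) were Rarg with r at 0.86, Ubald2 and Rbm4b with 0.85 each, and Aasdh and Fam193b with 0.84 each. For Spry4 alone, a choice made after its values were seen, the 5 closest genes were Fam212b (0.97), Meg3 (0.96), Ankrd24 (0.96), Aamp (0.96) and Ergic3 (0.95). These values are given without a test, since they are the highest among all genes compared.

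The rest of the pathway was looked at through 95 further genes in 5 textbook lists, of which 84 were tested. By edgeR 1 of the 84 was called lower, Fosl2, and 0 higher; at an unadjusted p under 0.05, 25 were lower and 2 higher, and DESeq2 called 9 lower and 0 higher. Over all genes tested these shares were 0.0513% lower by edgeR, 9.54% lower and 4.64% higher without adjustment, and 2.26% lower by DESeq2, and 48.8% had a lower fitted level, which 60 of the 84 had. These are the background for each list below as well. With single mice left out, Fosl2 stayed called only without AAV-GFP-2013 or AAV-GFP-2022, with edgeR adjusted p between 0.0135 and 0.131 over the 12 mice, and without AAV-GFP-2022 the calls went from 1 to 8; without AAV-Notum-2042 the gene called was Egfr in place of Fosl2. These lists, too, were written with results of these data known.

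Growth factor receptors had 14 of 15 tested members with a lower fitted level in AAV-Notum and a median log2 fold change of -0.43, with 0 called by edgeR, 6 lower and 1 higher at an unadjusted p under 0.05, and 2 called by DESeq2. The median was -0.23 with the lymphocyte score as a covariate and -0.25 over the 10 mice. Egfr (ENSMUSG00000020122, chromosome 11, 16752203 to 16918158), the receptor of EGF and its relatives, ran from 59.9 to 93.3 CPM in AAV-GFP, median 82.1, and from 36.2 to 61.6 CPM in AAV-Notum, median 46.6. Only AAV-GFP-2022 reached into the range of the AAV-Notum mice, and the log2 fold change was -0.80 ± 0.14 (SE; adjusted p 0.0847 by edgeR and 5.87e-05 by DESeq2). Erbb2, the partner receptor without a ligand of its own, had -0.66 ± 0.18 with no overlap (adjusted p 0.152 by edgeR, 0.0286 by DESeq2), and Pdgfra, the PDGF receptor of adipocyte precursors, -0.49 ± 0.14 (0.167 and 0.0514). Erbb2 was at -0.31 with the lymphocyte score as a covariate and at -0.43 over the 10 mice, where DESeq2 no longer called it (adjusted p 0.373).

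Ligands had 14 of 16 tested members with a lower fitted level and a median of -0.22, with 0 called by edgeR, 6 lower and 0 higher at an unadjusted p under 0.05, and 2 called by DESeq2. Btc, betacellulin, a ligand of the EGF receptor, had 9.42 to 37.1 CPM in AAV-GFP and 4.38 to 8.23 CPM in AAV-Notum. Those groups did not overlap, and the log2 fold change was -1.86 ± 0.35 (SE; adjusted p 0.0906 by edgeR and 5.2e-05 by DESeq2). Fgf1, a fibroblast growth factor of fat, had -1.17 ± 0.33 (edgeR adjusted p 0.166, DESeq2 0.0233), but -0.56 with the lymphocyte score as a covariate and -0.66 over the 10 mice, where the DESeq2 call was lost (adjusted p 0.441). Pdgfb had -0.37 ± 0.13 (edgeR adjusted p 0.235, DESeq2 0.134).

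The cascade from adaptors to ERK was near level, with 15 of 25 tested members with a lower fitted level and a median of -0.05, 0 called by either tool, and 2 lower and 0 higher at an unadjusted p under 0.05. Gab1, an adaptor behind many of these receptors, had a log2 fold change of -0.64 ± 0.20 (SE; edgeR adjusted p 0.208), Ptpn11, the phosphatase SHP2 that Ras activation needs, -0.32 ± 0.14 (0.328), and Rps6ka3, a kinase that ERK activates, -0.25 ± 0.13 (0.407). With the lymphocyte score as a covariate these were -0.28 for Gab1, -0.06 for Ptpn11 and -0.08 for Rps6ka3.

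Other members of the same families had 8 of 11 tested genes with a lower fitted level and a median of -0.47, with 0 called by edgeR, 5 lower and 0 higher at an unadjusted p under 0.05, and 2 called by DESeq2. The median was -0.090 with the lymphocyte score as a covariate and -0.27 with the RIN. Both genes that DESeq2 called were phosphatases with a preference for JNK and p38 over ERK. Dusp8 ran from 5.27 to 16.8 CPM in AAV-GFP and from 2.64 to 6.09 CPM in AAV-Notum, with a log2 fold change of -1.40 ± 0.29 (SE; adjusted p 0.105 by edgeR, 8.0e-04 by DESeq2). Dusp16 ran from 33.0 to 46.8 and from 24.9 to 30.3 CPM without overlap, with -0.50 ± 0.09 (adjusted p 0.0912 by edgeR, 6.2e-04 by DESeq2). Dusp3 had -0.54 ± 0.18 (edgeR adjusted p 0.228). With the lymphocyte score as a covariate Dusp8 was at -0.86, Dusp16 at -0.34 and Dusp3 at -0.25, and DESeq2 still called Dusp8 and Dusp16 over the 10 mice (adjusted p 0.0281 and 0.00246).

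Other transcriptional outputs of ERK went both ways, with 9 of 17 tested members with a lower fitted level and a median of -0.16, 1 called lower by edgeR, 6 lower and 1 higher at an unadjusted p under 0.05, and 3 called lower by DESeq2. The median was 0.17 without AAV-GFP-2021. Fosl2, which encodes the AP-1 subunit FRA2, was lower, with 41.2 to 60.0 CPM in AAV-GFP, 27.2 to 34.5 CPM in AAV-Notum, no overlap, and a log2 fold change of -0.74 ± 0.11 (SE; adjusted p 0.0341 by edgeR and 1.87e-06 by DESeq2). The edgeR call was lost with the lymphocyte score as a covariate (-0.59, adjusted p 0.0796), with the RIN (-0.68, 0.0760), over the 10 mice (-0.65, 0.214), with the looser filter of 1 read (-0.73, 0.0572) and with limma on the authors' normalized values (-0.71, 0.0561), while DESeq2 still called Fosl2 over the 10 mice (adjusted p 4.8e-04). The other DESeq2 calls, named here after their values were seen, were Jun, another AP-1 subunit (-0.88 ± 0.19; edgeR adjusted p 0.121), and Errfi1, an inhibitor of the EGF receptor (-1.17 ± 0.27; 0.130). Jun was at -0.47 with the lymphocyte score as a covariate and at -0.57 over the 10 mice, where DESeq2 no longer called it (adjusted p 0.0538), and Errfi1 was at -1.23 and -1.24. Egr1, an immediate early gene that ERK induces within minutes and that was also picked after its value was seen, had the opposite sign, 0.55 ± 0.21 (edgeR adjusted p 0.280, DESeq2 0.171).

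**Figure D5:**
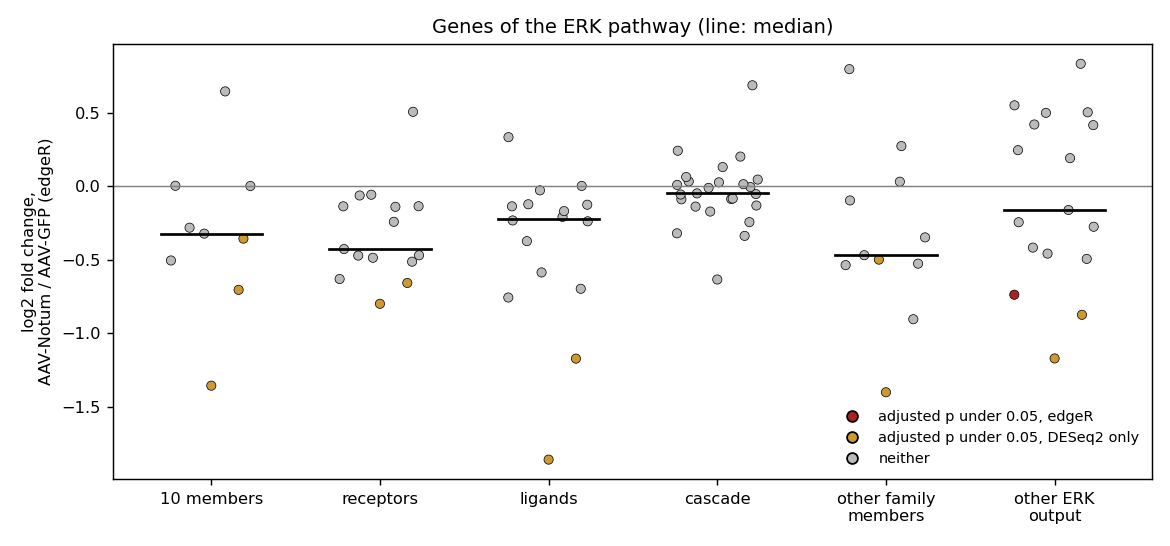
Log2 fold change of AAV-Notum over AAV-GFP (vertical axis, edgeR) of each tested gene of the 10 members and of the 5 pathway lists, with a line at the median of a list and colors for the tool that called the gene. Receptors have a median of -0.43 and the cascade one of -0.05, and Fosl2 is the only gene that edgeR called.

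Egfr and the members were compared within groups as well, since the receptor and its inhibitors share a pathway. Of 9 relations over 12 mice, 0 had an adjusted p under 0.05 by exact permutation, with 1 at an unadjusted p under 0.05, that of Spry2 (r 0.67, p 0.0152, adjusted 0.136; rho 0.50, p 0.117, adjusted 0.542), which was 0.28 without the 2 mice farthest from the median of Egfr. For Spry4 and Egfr r was 0.42 (p 0.192, adjusted 0.345) and rho 0.43 (p 0.191, adjusted 0.542), by the same exact permutation test. Without the 2 mice farthest from the median of Egfr, this r was 0.075. With 12 mice the test cannot tell a moderate relation from none. Whether the lower levels of Spry4 and Egfr in AAV-Notum are linked was not tested.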

How the data were processed

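Per the paper's methods and the labels, the authors made TruSeq libraries of iWAT RNA, sequenced 50-base single-end reads, checked them with FastQC, and aligned them to mm10 with STAR 2.3.1; the counting program and its strand setting are not given in the sources used here. The authors deposited a table of read counts per gene and a second table of log2 values, the log2 of counts divided by a size factor per sample plus 1. From the latter, whole reads were recovered in 100% of values (tolerance 0.01 reads), and for members other than Etv4 these differed from the deposited counts by at most 6.59%. The deposited counts were tested with edgeR 4.0.16 (R 4.3.3): filterByExpr (minimum count 10), TMM, quasi-likelihood test, group as the only term, Benjamini-Hochberg over 15585 genes; DESeq2 1.42.0 and limma 3.58.1 were alternatives. Correlations used log2 CPM (prior count 2) and 518400 exact within-group permutations. Scripts were tested on simulated data. Members and gene lists were chosen with earlier results of these data known. Named genes are the members, Notum, Egfr, per list any called gene or otherwise the 3 with the smallest p, and the 5 most alike; others are marked as chosen after their values were seen. Positions are from GENCODE vM21.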

Additional observations from a re-analysis of the deposited data

Results flagged for a closer look

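Among the 22 sets of 6 CPM values checked, for the 10 members and Egfr in each group, 1 had a mouse far from the others: Etv4 in mouse AAV-Notum-2032, with 0.419 CPM against 0.254 to 0.308 CPM in the other 5. The gap was 0.675 of the whole range of the group, above the limit that Dixon's test sets for 6 values. These are 8 reads against 4 or 5, and about 1 set in 20 exceeds the limit by chance. The same mouse was among those with many Notum reads in fat, while AAV-Notum-2041, the other such mouse, had 5 Etv4 reads.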

How the results depend on the processing

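No paired analysis was possible because the mouse numbers are not shared between the groups. Spry1, Spry2, Spry4, Spred1, Spred2 and Dusp4 kept a negative log2 fold change in all 23 alternatives, with Spry4 between -1.46 and -0.98. Members called lower went from 0 to 3 with DESeq2, 1 with RLE size factors (Spry4, adjusted p 0.0422), 1 with DESeq2 without AAV-GFP-2011 and AAV-GFP-2014 (chosen after seeing the data), and 0 to 3 when each mouse was left out. Pathway genes called went from 1 to 9 with DESeq2 and 7 with DESeq2 without both mice, to 0 with a filter of at least 1 count, the RIN or lymphocyte score as a covariate, without both mice, or the authors' normalized values, and 0 to 8 when each mouse was left out. With the lymphocyte score Dusp5 had -0.22. Dusp6, near 0, turned negative with the RIN (-0.12), the lymphocyte score (-0.31), without both mice (-0.24 by edgeR and -0.24 by DESeq2) and in recovered reads (-0.0017), and ran from -0.10 to 0.12 leaving out each mouse. Etv5 did so with limma-voom (-2.5e-04), the RIN (-0.047), the lymphocyte score (-0.20), without both mice (-0.092 by edgeR, -0.090 by DESeq2), normalized values (-0.0095) and recovered reads (-0.0014), and ran from -0.065 to 0.10. The receptor median was -0.23 with the lymphocyte score, -0.25 without both mice and -0.24 by DESeq2 without them; that of other family members was -0.27 with the RIN and -0.090 with the lymphocyte score; that of other ERK outputs was 0.022 in normalized values and ran from -0.20 to 0.17 (without AAV-GFP-2021). Correlated member pairs fell from 4 to 1 without both mice. The causes were not tested. Depth limits Etv4, at 4 to 13 reads.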
